A study of Homo sapiens with 6 samples.

Results

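The intestinal differentiation and mucin genes followed here are 37 named genes: the transcription factors of the intestinal lineage, the secreted and membrane-bound mucins with their goblet cell partners, proteins of the absorptive colonocyte, and the adhesion proteins EPCAM and CEACAM. They were picked by gene symbol, and 31 of the 37 have a row among the 31016 genes of the deposited table. CDX1, FABP1, SI, CEACAM7, MUC17 and OLFM4 have none, so their expression was not analysed, only their promoter sequences where one was matched. The cells were DLD-1, an established human colorectal adenocarcinoma line, in a TGF-β + TFA group and a TGF-β group of 3 libraries each. TGF-β is a growth factor, given to every culture, and TFA is the total flavone extract of the plant Abelmoschus manihot. The labels give 24, 25 and 26 h of treatment for libraries 1, 2 and 3 of both groups. These hours rise by 1 with the library number in both groups and may be an entry error, so the true time is uncertain. Doses, and whether the libraries came from separate cultures, are not given in the sources used here, so p-values measure only the spread between these libraries. All cells are of 1 line, and a group without TGF-β was not analysed here.

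The colon epithelium is renewed from stem cells at the base of the crypts, whose progeny become absorptive colonocytes or secretory cells such as goblet cells. The homeobox factors CDX1 and CDX2, with HNF4A, GATA6 and KLF5, hold the intestinal programme in place. ATOH1 commits cells to the secretory branch and SPDEF matures goblet cells, which release gel-forming mucins, chiefly MUC2, together with trefoil peptides. Colorectal tumours keep or lose parts of this programme, so its genes describe how far a cell line has kept its lineage.

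Promoter sequences of 6 members are shown because they set neighbours, regulators and targets of very unequal level side by side. AGR2 and AGR3 are neighbouring paralogs on chromosome 7. CDX2 is a transcription factor of the intestinal lineage, and MUC13 is the most abundant membrane mucin among the members. MUC2 and SI are differentiation genes that were at or near 0 or had no row. Each run is the RefSeq promoter (GRCh38.p14), from 250 bases before to 50 bases after the annotated start, written 5′ to 3′ on the strand of the gene. Capitals mark a match on either strand to a short core. The CDX-type core was TTTATG, with TTTATT accepted as well. The HNF4-type core was CAAAGTC, the GATA-type core was AGATAA and the KLF-type core was GGGTGTG, and no matches overlapped in these 6 promoters.
AGR2 (chr7:16804950-16805249, minus strand): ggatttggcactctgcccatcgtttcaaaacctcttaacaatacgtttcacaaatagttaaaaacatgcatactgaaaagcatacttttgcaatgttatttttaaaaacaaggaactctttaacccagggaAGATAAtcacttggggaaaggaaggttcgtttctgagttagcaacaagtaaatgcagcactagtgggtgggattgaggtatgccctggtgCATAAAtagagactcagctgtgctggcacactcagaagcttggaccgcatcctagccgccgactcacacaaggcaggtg
AGR3 (chr7:16881934-16882233, minus strand): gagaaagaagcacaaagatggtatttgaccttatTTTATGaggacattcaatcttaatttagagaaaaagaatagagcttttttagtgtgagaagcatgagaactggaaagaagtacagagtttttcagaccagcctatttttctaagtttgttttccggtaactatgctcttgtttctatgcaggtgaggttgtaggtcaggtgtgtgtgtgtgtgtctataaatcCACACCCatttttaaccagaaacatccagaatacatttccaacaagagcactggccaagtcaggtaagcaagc
CDX2 (chr13:27969266-27969565, minus strand): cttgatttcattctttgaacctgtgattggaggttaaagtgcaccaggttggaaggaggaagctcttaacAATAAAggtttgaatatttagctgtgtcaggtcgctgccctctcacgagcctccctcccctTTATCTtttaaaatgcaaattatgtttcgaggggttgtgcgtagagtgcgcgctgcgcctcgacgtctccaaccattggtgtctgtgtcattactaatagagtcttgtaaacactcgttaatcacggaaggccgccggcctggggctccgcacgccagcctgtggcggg
MUC13 (chr3:124934702-124935001, minus strand): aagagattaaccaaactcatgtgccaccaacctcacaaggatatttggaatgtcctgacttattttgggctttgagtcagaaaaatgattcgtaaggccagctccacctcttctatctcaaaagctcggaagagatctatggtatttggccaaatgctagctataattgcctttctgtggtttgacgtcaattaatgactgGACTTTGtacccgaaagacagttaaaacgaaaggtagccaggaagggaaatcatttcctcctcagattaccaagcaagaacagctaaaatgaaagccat
MUC2 (chr11:1074624-1074923, plus strand): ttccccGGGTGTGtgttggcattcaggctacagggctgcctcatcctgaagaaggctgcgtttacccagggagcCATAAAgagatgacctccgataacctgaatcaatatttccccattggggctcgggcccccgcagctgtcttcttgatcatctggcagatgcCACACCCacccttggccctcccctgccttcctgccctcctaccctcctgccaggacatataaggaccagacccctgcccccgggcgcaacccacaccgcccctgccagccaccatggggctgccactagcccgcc
SI (chr3:165078447-165078746, minus strand): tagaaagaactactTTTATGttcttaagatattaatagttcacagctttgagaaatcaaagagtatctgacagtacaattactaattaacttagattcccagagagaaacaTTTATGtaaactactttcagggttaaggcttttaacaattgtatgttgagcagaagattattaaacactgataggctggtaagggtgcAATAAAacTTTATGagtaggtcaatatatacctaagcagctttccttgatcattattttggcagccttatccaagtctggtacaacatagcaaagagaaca
The AGR2 promoter held a CDX-type core at -29 and a GATA-type core at -119 (first base, counted from the start site), and that of AGR3 held a CDX-type core at -216 and a KLF-type core at -23. MUC13 held an HNF4-type core at -49, and CDX2 a CDX-type core at -180 and a GATA-type core at -119. MUC2 held a CDX-type core at -176 and KLF-type cores at -244 and -85. The SI promoter held 4 CDX-type cores. The RefSeq start of AGR2 lies inside the span of the deposited AGR2 row, which begins farther upstream, so the row includes transcripts from other starts.

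RefSeq promoters were matched by symbol for 27 of the 37 members. The CDX-type core was found in 10 of these 27 promoters (37%), against 24.3% of all 35116 RefSeq promoters of the same length. The HNF4-type core was found in 3 (11.1%, against 3.37%), those of MUC13, ALPI and SLC26A3. The GATA-type core was found in 5 (18.5%, against 10.3%) and the KLF-type core in 4 (14.8%, against 7.56%). These matches describe letters and were not tested.

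Estimated counts totalled 60361756 to 68745953 per library, and each fragment probably adds about 4 of them, because a count of 4 was held by 1032 to 1271 genes per library and a count of 3 by 601 to 685. One library stood apart. When tested genes were cut into 10 bins by transcript length, the bin of shortest transcripts in TGF-β + TFA 3 had a median log2 deviation of 0.36 from the 6-library mean, and the bin of longest transcripts -0.33. These medians stayed between -0.16 and 0.20 in the other 5. Results that rest on that library are given with and without it. Levels below are FPKM, fragments per kilobase of transcript, scaled to library size, as deposited, which can be compared between genes. Fold changes come from edgeR on the estimated counts.

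The line expressed part of the programme. A mean of at least 1 FPKM over the 6 libraries was reached by 9 of the 31 members with a row (29%), close to the 33.8% of all rows of the table, and so by 9 of the 37 members in all. These 9 were AGR2, EPCAM, KLF5, CDX2, CA2, TFF3, TFF1, MUC13 and GATA6. AGR2 and EPCAM alone made up 90.9% of the summed level of the members, and 14 of the 31 members with a row averaged under 0.1 FPKM. Of the 31, 12 were listed at 0 in at least 1 library.

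**Figure D1:**
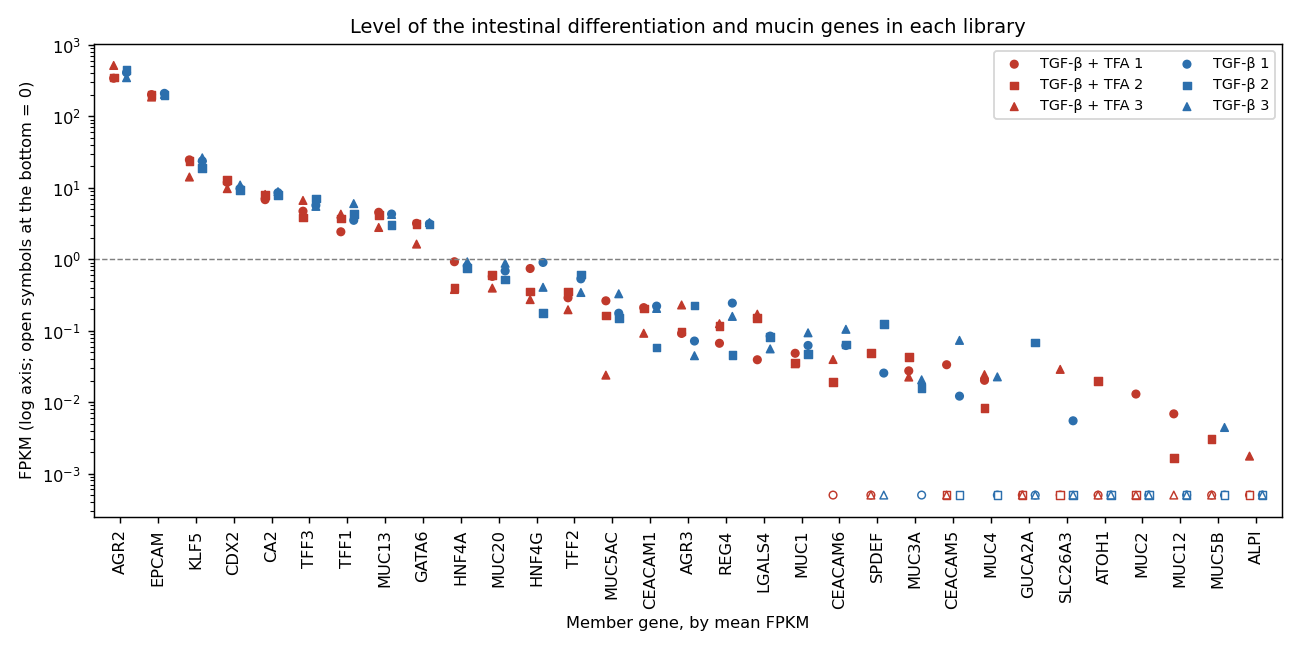
FPKM of the 31 members with a row in each of the 6 libraries, on a log axis, ordered by the mean over all libraries, with TGF-β + TFA in red and TGF-β in blue. Open symbols at the bottom mark values of 0, and the dashed line marks 1 FPKM. AGR2 (mean 402) and EPCAM (mean 200.4) stand far above the rest, and the points of both groups lie together at nearly every gene.

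No member passed the test for a difference between TGF-β + TFA and TGF-β. Of the 31 members with a row, 21 passed the low-count filter and were tested. With the estimated counts divided by 4, 14 passed it and 0 were called. TFF2, REG4, MUC1, MUC3A, MUC4, LGALS4 and CEACAM6 were then not tested. With edgeR's quasi-likelihood F test, adjusted by Benjamini-Hochberg over 18265 genes, 0 of the 21 had an adjusted p under 0.05, against 0.0109% of all tested genes. At an unadjusted p under 0.05 there were also 0 of 21, against 1.83% of all tested genes, and DESeq2 and limma called 0 members as well. The adjusted p was 0.9997 for every tested member, and all 21 intervals (95%) held 0. The median log2 fold change was -0.13 over the tested members and 0.01 over all tested genes. Fitted values were below 0 for 14 of the 21 members, and for 48.1% of all tested genes.

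Groups whose FPKM ranges did not overlap were found in 1 tested member higher with TFA, MUC3A, against 4.22% of tested genes. They were found in 1 tested member lower with TFA, CEACAM6, against 3.73%. On TMM-scaled CPM, which also corrects for library composition, the counts were 2 higher (CDX2 and MUC3A, against 4.58% of tested genes) and 4 lower (GATA6, TFF2, MUC1 and CEACAM6, against 3.33%). Whether the groups of CDX2, GATA6, TFF2 and MUC1 separated therefore depended on the scaling.

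**Figure D2:**
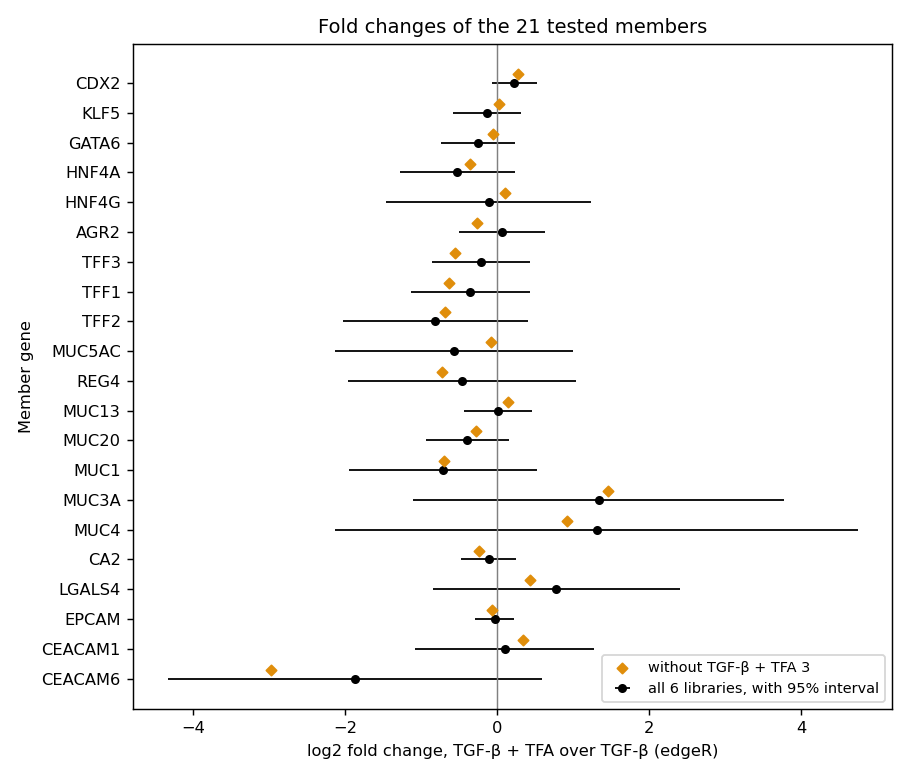
Fitted log2 fold change of TGF-β + TFA over TGF-β for the 21 tested members, grouped by role, with 95% intervals (black, all 6 libraries) and the value without TGF-β + TFA 3 (orange). All intervals hold 0, from the narrow interval of EPCAM (-0.29 to 0.23) to the wide one of MUC4 (-2.13 to 4.75).

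Among the transcription factors, KLF5, CDX2 and GATA6 were expressed at more than 1 FPKM. CDX2, the homeobox factor that specifies intestinal identity, had 11.9, 13.0 and 9.74 FPKM in the TGF-β + TFA libraries and 9.77, 9.29 and 10.9 FPKM in the TGF-β libraries. In CPM the values were 45.4, 49.0 and 43.2 with TGF-β + TFA and 37.9, 37 and 42.2 with TGF-β, so the groups separated on that scale only. The log2 fold change was 0.23 (SE 0.12, 95% interval -0.06 to 0.52, unadjusted p 0.101), the lowest unadjusted p among the members in edgeR. Leaving out 1 library at a time gave 0.17 to 0.27, and without TGF-β + TFA 3 the edgeR value was 0.27 with an unadjusted p of 0.0488 and an adjusted p of 0.9992. In GRCh38, CDX2 (ENSG00000165556) spans bases 27960918 to 27969315 of chromosome 13, minus strand.

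KLF5, a Krüppel-like zinc-finger factor of proliferating crypt cells, had 24.6, 23.8 and 14.2 FPKM with TGF-β + TFA and 23.8, 19.2 and 26.3 FPKM with TGF-β. It was lowest in TGF-β + TFA 3, and the other 5 libraries overlapped. The log2 fold change was -0.13 (SE 0.19, interval -0.58 to 0.31), and 0.03 without that library. GATA6, a zinc-finger factor of endoderm, had 3.19, 3.10 and 1.63 FPKM with TGF-β + TFA and 3.15, 3.05 and 3.26 FPKM with TGF-β. Here too only TGF-β + TFA 3 was far from the rest: the log2 fold change was -0.25 (SE 0.21, interval -0.74 to 0.24) over all libraries and -0.05 (interval -0.35 to 0.25) without it, against -0.39 without TGF-β + TFA 1. GATA6 shares 240 exon bases with GATA6-AS1 and 321 with AC091588 on the opposite strand. The libraries marked strand, but whether counting used it is not stated, so reads of these pairs may be mixed.

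HNF4A, a nuclear receptor that drives enterocyte genes, stood below 1 FPKM, with 0.924, 0.399 and 0.377 FPKM under TGF-β + TFA and 0.799, 0.752 and 0.920 FPKM under TGF-β. TGF-β + TFA 1 lay at the top of the TGF-β range and the other 2 lay below it (log2 fold change -0.52, SE 0.33, interval -1.28 to 0.24). Without TGF-β + TFA 1 the value was -1.01 (SE 0.21), with an unadjusted p of 0.00176 and an adjusted p of 0.990 in edgeR, and without TGF-β + TFA 2 it was -0.32. Its paralog HNF4G had 0.743, 0.355 and 0.272 FPKM with TGF-β + TFA and 0.903, 0.177 and 0.405 FPKM with TGF-β, a spread so wide within each group that the interval ran from -1.46 to 1.24. ATOH1, the switch to the secretory lineage, was above 0 only in TGF-β + TFA 2 (4 estimated counts, about 1 fragment). SPDEF, the factor of goblet cell maturation, had 7 estimated counts in TGF-β + TFA 2, 4 in TGF-β 1 and 18 in TGF-β 2, and was at 0 in the other 3.

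**Figure D3:**
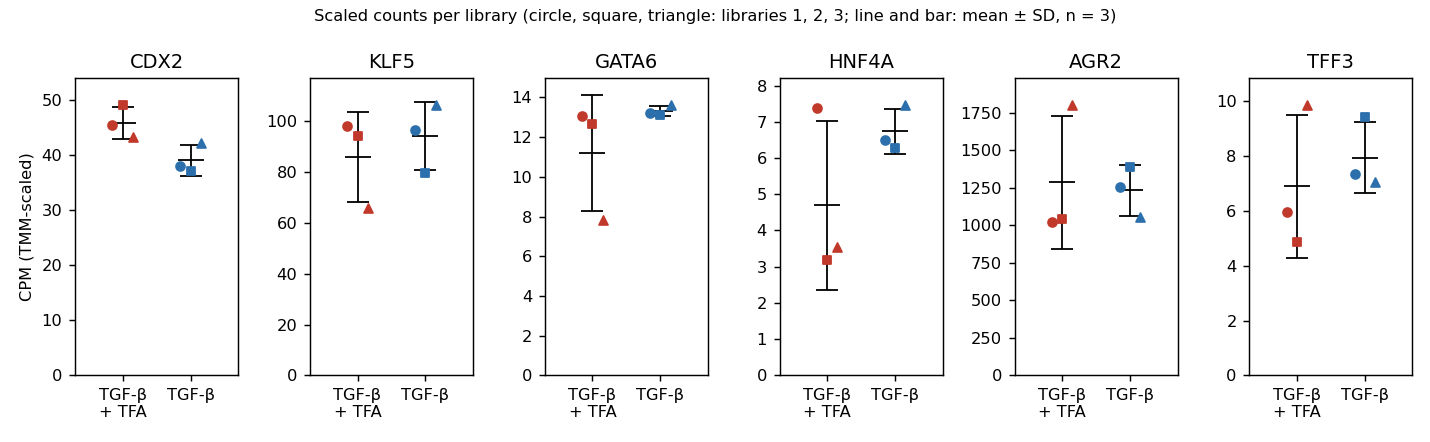
TMM-scaled CPM of CDX2, KLF5, GATA6, HNF4A, AGR2 and TFF3 in each library, with mean ± SD (n = 3) in black and each axis starting at 0. CDX2 lies above the TGF-β libraries in all 3 TGF-β + TFA libraries, while KLF5 and GATA6 are lowest, and AGR2 and TFF3 highest, in TGF-β + TFA 3 (triangle).

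AGR2 was the most abundant member. It encodes a protein of the disulfide isomerase family in the endoplasmic reticulum, which in the mouse intestine is needed to make Muc2. It had 342, 352 and 517 FPKM with TGF-β + TFA and 411, 444 and 348 FPKM with TGF-β, rank 89 of 31016 rows by mean. The highest value was in TGF-β + TFA 3, and the other TFA libraries sat near the low end of the TGF-β range. The log2 fold change was 0.06 (SE 0.24, interval -0.50 to 0.63) over all libraries and -0.26 (interval -0.55 to 0.04) without TGF-β + TFA 3, so its direction depended on that library.

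Its neighbour AGR3 on the same strand averaged 0.139 ± 0.0779 FPKM with TGF-β + TFA and 0.114 ± 0.0969 FPKM with TGF-β (SD, n = 3). The mean over all libraries was 3180 times lower than that of AGR2. AGR2 (ENSG00000106541) spans 16791811 to 16833433 and AGR3 (ENSG00000173467) 16859412 to 16881983 on chromosome 7, both on the minus strand (GRCh38). AGR3 was too low to test, at 4 to 20 estimated counts per library.

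The trefoil genes TFF1, TFF2 and TFF3 encode small secreted peptides that are released with mucus and aid repair of the epithelium, and they lie side by side on chromosome 21 (42311667 to 42366535, minus strand, GRCh38). TFF3, the trefoil peptide of intestinal goblet cells, had 4.71, 3.86 and 6.66 FPKM with TGF-β + TFA and 5.70, 7.11 and 5.50 FPKM with TGF-β. TFF1, typical of the stomach, had 2.42, 3.70 and 4.28 FPKM with TGF-β + TFA and 3.51, 4.26 and 6.01 FPKM with TGF-β. TFF2, a gastric mucous neck cell peptide, averaged 0.280 ± 0.0792 FPKM with TGF-β + TFA and 0.495 ± 0.137 FPKM with TGF-β (SD, n = 3). Over all libraries the mean of TFF3 was 14.4 times and that of TFF1 10.4 times the mean of TFF2.

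All 3 trefoil genes had fitted values below 0, at -0.21 (SE 0.28) for TFF3, -0.35 (SE 0.34) for TFF1 and -0.81 (SE 0.52) for TFF2, and none passed. TGF-β + TFA 3 held the highest TFA value of TFF3 and TFF1. Without it TFF3 was at -0.55 (SE 0.20, interval -1.03 to -0.07; edgeR, unadjusted p 0.0289, adjusted p 0.9992), and TFF1 at -0.63 (SE 0.34). These were the lowest values when 1 library was left out. The highest were -0.02 for TFF3 (without TGF-β + TFA 2) and -0.13 for TFF1 (without TGF-β + TFA 1). In the fit without TGF-β + TFA 3, TFF1, TFF3 and AGR2 all stood below 0, but the adjusted p of each was 0.9992 in edgeR.

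The gel-forming mucins were nearly silent. MUC2, the main mucin of the colonic mucus layer, was above 0 only in TGF-β + TFA 1, with 12 estimated counts (0.0130 FPKM). MUC5B was above 0 only in TGF-β + TFA 2 and TGF-β 3, with 4 and 6 estimated counts. MUC5AC, the gel-forming mucin of the stomach surface, was the highest of the 3, at 0.262, 0.163 and 0.0239 FPKM with TGF-β + TFA and 0.176, 0.152 and 0.329 FPKM with TGF-β. It was again lowest in TGF-β + TFA 3 (log2 fold change -0.57, SE 0.67). The value was -0.08 without that library and -1.23 without TGF-β + TFA 1. REG4, a secreted lectin of neuroendocrine and goblet cells, averaged 0.103 ± 0.0316 FPKM with TGF-β + TFA and 0.149 ± 0.0992 FPKM with TGF-β (SD, n = 3), with groups that overlapped.

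Among the membrane-bound mucins, large glycoproteins anchored in the apical surface, MUC13 alone passed 1 FPKM. It had 4.55, 4.18 and 2.79 FPKM with TGF-β + TFA and 4.30, 3.03 and 4.24 FPKM with TGF-β, ranges that overlapped almost wholly (log2 fold change 0.01, SE 0.19, interval -0.44 to 0.46). MUC20 had 0.576, 0.602 and 0.395 FPKM with TGF-β + TFA and 0.687, 0.519 and 0.879 FPKM with TGF-β (log2 fold change -0.39, SE 0.23). It shares 1820 of its 4249 exon bases with MUC20-OT1 on the same strand, so its reads cannot be cleanly assigned. MUC20-OT1 averaged 0.547 ± 0.0761 FPKM with TGF-β + TFA and 0.558 ± 0.0723 FPKM with TGF-β (SD, n = 3).

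The other membrane mucins stood at trace level. MUC1, expressed on many glandular epithelia, averaged 0.0396 ± 0.00761 FPKM with TGF-β + TFA and 0.0677 ± 0.0235 FPKM with TGF-β (log2 fold change -0.71, SE 0.53). MUC3A had 22, 34 and 18 estimated counts with TGF-β + TFA and 0, 14 and 17 with TGF-β (log2 fold change 1.34, SE 1.05, interval -1.10 to 3.78). MUC4 had 29, 13 and 35 with TGF-β + TFA and 0, 0 and 34 with TGF-β (log2 fold change 1.31, SE 1.48), so TGF-β 3 alone held its reads in that group. Without TGF-β 3 the fitted value was 7.78 (SE 1.53; edgeR, unadjusted p 0.00272, not called after adjustment), but the TGF-β group is then at 0 and the value depends on the prior count. With the replicate number as a block it was 3.26. MUC12, the neighbour of MUC3A on chromosome 7, had 8 and 2 estimated counts in TGF-β + TFA 1 and 2 and 0 elsewhere. Mucins carry long tandem repeats, in which reads are hard to place, and the values of these genes are uncertain.

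Of the absorptive proteins, CA2 was the only one above 1 FPKM. CA2, a cytosolic carbonic anhydrase, had 6.83, 7.87 and 8.10 FPKM with TGF-β + TFA and 8.56, 7.91 and 8.84 FPKM with TGF-β, with overlapping groups (log2 fold change -0.11, SE 0.15, interval -0.47 to 0.25). LGALS4, the gut lectin galectin-4, had 7, 27 and 26 estimated counts with TGF-β + TFA and 16, 14 and 9 with TGF-β (log2 fold change 0.78, SE 0.70). SLC26A3, the chloride-bicarbonate exchanger of the colonocyte, had 7 estimated counts in TGF-β + TFA 3, 2 in TGF-β 1 and 0 elsewhere. ALPI, the alkaline phosphatase of the brush border, had 1 in TGF-β + TFA 3, and GUCA2A, which encodes guanylin, had 4 in TGF-β 2. At this depth neither a presence nor a difference of these 3 could be shown.

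EPCAM, the adhesion protein that marks epithelial cells, was the steadiest member. It had 202, 199.6 and 186 FPKM with TGF-β + TFA and 210.3, 200.9 and 203 FPKM with TGF-β, rank 190 of 31016 rows. The log2 fold change was -0.03 (SE 0.11), and its interval corresponds to 0.816 to 1.17 times the TGF-β level.

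The CEACAM genes encode cell-surface adhesion proteins of the immunoglobulin family, of which CEACAM5 is the carcinoembryonic antigen used as a colorectal tumour marker. All 3 with a row were near silent. CEACAM1 averaged 0.169 ± 0.0666 FPKM with TGF-β + TFA and 0.161 ± 0.0897 FPKM with TGF-β (SD, n = 3). CEACAM5 had 10, 0 and 0 estimated counts with TGF-β + TFA and 4, 0 and 21 with TGF-β. CEACAM6 had 0, 4 and 8 with TGF-β + TFA and 15, 14 and 22 with TGF-β. These CEACAM6 groups did not overlap, but the counts correspond to only a few fragments per library, and the interval of the log2 fold change ran from -4.33 to 0.59 (value -1.87). CEACAM5 and CEACAM6 are close paralogs on chromosome 19, between which reads could be split.

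Across the 12 most abundant members, the distance of TGF-β + TFA 3 from the mean of TGF-β + TFA 1 and 2 ranged from -0.72 (GATA6) to 0.87 (TFF3) in log2 CPM. The 5 with the shortest transcripts (TFF1, TFF3, CA2, EPCAM and AGR2) were above 0 and the other 7 below it. The medians of all tested genes also fell with length, but the signs did not always match. MUC13 (-0.42) and CDX2 (-0.13) were below 0 where their length bin had a median of 0.11, as were GATA6 and KLF5 in theirs. In TFF3 the difference was 0.87 and the median of tested genes in the same length bin 0.38. AGR2 differed by 0.80 where its bin had a median of 0.24, and GATA6 and KLF5 by -0.72 and -0.55 where theirs had 0.01. EPCAM (0.12, median 0.24) and CA2 (0.37, median 0.38) lay closer to their bins. What part the length trend has in these values was not tested. With offsets that remove it, the log2 fold changes were 0.02 for AGR2, -0.25 for GATA6, -0.13 for KLF5, -0.31 for TFF3 and -0.51 for TFF1. Without the offsets they were 0.06, -0.25, -0.13, -0.21 and -0.35 in the same order, and none was called in either fit.

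**Figure D4:**
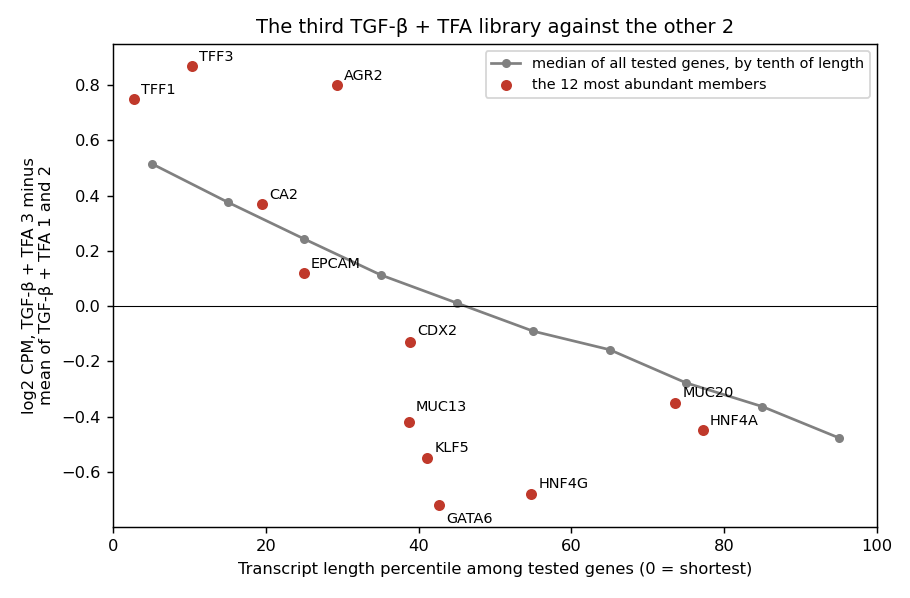
Difference in log2 CPM of TGF-β + TFA 3 from the mean of TGF-β + TFA 1 and 2, against transcript length percentile (from the ratio of estimated count to FPKM), for the 12 most abundant members (red) and as medians of all tested genes in 10 length bins (grey). The grey line runs from 0.52 in the bin of shortest transcripts down to -0.48 in the longest. TFF3, AGR2 and TFF1 lie above it. GATA6, HNF4G, KLF5 and MUC13 lie farthest below it, and CDX2, HNF4A, EPCAM and MUC20 less far below.

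Further lists of 146 genes, of intestinal cell types, relatives of the members and gastric epithelium, filled in the picture. Of 108 with a row, 73 were tested, 0 were called by edgeR and 2 had an unadjusted p under 0.05. Among 20 further intestinal and endodermal factors, 10 averaged at least 1 FPKM, led by EHF, an ETS factor of epithelia (30.8 ± 11.3 FPKM with TGF-β + TFA and 33.5 ± 9.62 FPKM with TGF-β), and SOX9, a factor of crypt progenitors (13.0 ± 4.36 FPKM and 15.1 ± 3.05 FPKM in that order; SD, n = 3).

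Of 32 further absorptive genes, 5 averaged at least 1 FPKM: KRT20, CDH17, SLC26A2, DPP4 and VIPR1. KRT20, a keratin of differentiated colonocytes, averaged 66.1 ± 8.88 FPKM with TGF-β + TFA and 64.0 ± 6.45 FPKM with TGF-β. CDH17, an intestinal cadherin, averaged 31.7 ± 8.29 FPKM with TGF-β + TFA and 28.1 ± 6.92 FPKM with TGF-β (SD, n = 3 each). Of 24 goblet and mucin-glycosylation genes, 12 averaged at least 1 FPKM, led by TSPAN8 (55.3 ± 13.3 FPKM with TGF-β + TFA and 57.8 ± 3.13 FPKM with TGF-β) and XBP1, a factor of secretory cells (54.5 ± 3.96 and 57.1 ± 3.11 FPKM in the same order). The transferases that start and extend mucin-type sugars, GALNT3, GALNT7 and C1GALT1 with its chaperone C1GALT1C1, were all expressed. GALNT3 averaged 25.6 ± 1.81 FPKM with TGF-β + TFA and 26.8 ± 1.60 FPKM with TGF-β, and C1GALT1 6.38 ± 0.455 and 6.76 ± 0.470 FPKM in the same order (SD, n = 3). GCNT3, a branching transferase of mucin sugars, had 0.338 ± 0.0336 FPKM with TGF-β + TFA and 0.200 ± 0.0371 FPKM with TGF-β (log2 fold change 0.79, SE 0.24, unadjusted p 0.0127, adjusted p 0.9997 in edgeR).

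Stem cell genes were broadly present. Of 14, all had a row and 11 averaged at least 1 FPKM, led by the Wnt target AXIN2 (34.6 ± 9.49 FPKM with TGF-β + TFA and 38.4 ± 6.22 FPKM with TGF-β) and the stem cell factor ASCL2 (25.8 ± 2.63 FPKM with TGF-β + TFA and 27.6 ± 2.28 FPKM with TGF-β). The receptor LGR5 averaged 2.16 ± 0.791 FPKM with TGF-β + TFA and 2.54 ± 0.347 FPKM with TGF-β (SD, n = 3). Enteroendocrine, Paneth, tuft and gastric lists each had 1 member of at least 1 FPKM. These were SCG5 (5.83 ± 0.839 FPKM with TGF-β + TFA and 6.96 ± 0.224 FPKM with TGF-β), PRSS2 (14.4 ± 3.78 and 15.5 ± 1.80 FPKM in the same order), IL17RB (6.20 ± 0.250 and 6.01 ± 0.908 FPKM) and SOX2. SOX2 had 1.76, 1.15 and 1.41 FPKM with TGF-β + TFA and was listed at 0 in TGF-β 1, against 1.40 and 0.919 FPKM in TGF-β 2 and 3. One defining gene of each of the first 3 cell types, CHGA, LYZ and POU2F3, reached at most 0.109, 0.0667 and 0.0800 FPKM in any library.

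Markers of other cell types were low throughout. EPCAM, of epithelia in general, and KRT20, CDH17 and CDX2, of intestinal epithelium, were expressed in every library. These 4 are among the highest of their lists, most of which stood lower. Only 5 of 32 further absorptive genes and 9 of the 31 members with a row averaged at least 1 FPKM. Summed over each list, squamous, haematopoietic and hepatocyte genes stayed at or under 0.916 FPKM in all libraries. Endothelial genes summed to 2.04 to 2.38 FPKM with TGF-β + TFA and 1.55 to 1.99 FPKM with TGF-β, most of it EGFL7. The 10 fibroblast genes summed to 0.464 to 2.40 FPKM with TGF-β + TFA and 0.063 to 0.373 FPKM with TGF-β. In edgeR 4 of the 7 tested had an unadjusted p under 0.05, against 1.83% of all tested genes, and none was called. These were COL1A1, COL1A2, COL6A3 and PDGFRA, all higher with TGF-β + TFA. Genes near 0 with TGF-β, such as PDGFRA (0, 0 and 0.00553 FPKM), passed the low-count filter mainly through the TGF-β + TFA group. The 2 shares are therefore not comparable, and no difference is read from them. COL3A1, DCN and LUM were at 0 in all TGF-β libraries, but the list as a whole was not. In TGF-β 2 and 3, COL1A1 had 0.106 and 0.0717 FPKM and COL1A2 0.105 and 0.110 FPKM. Because RNA was taken from whole cultures, fewer cells of a type and less RNA per cell cannot be told apart, and what part this trace has in the values of the members was not tested.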

How the data were processed

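Poly(A) RNA of 6 DLD-1 libraries was sequenced with strand marking, per the labels' protocols. The authors deposited 1 table with FPKM (fragments per kilobase, scaled to library size) and whole-number estimated counts per gene and library. Tools listed in the submitters' processing notes, without roles, are HISAT2 2.0.4, StringTie 1.3.4d and cutadapt 1.9, with the build GRCh38. Adapters carried molecular identifiers, and their use in counting is not stated.

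The estimated counts entered edgeR 4.0.16 (R 4.3.3) with filterByExpr, TMM scaling, group as the only term, glmQLFTest and Benjamini-Hochberg adjustment over 18265 genes, called at an adjusted p under 0.05. Standard errors are the fold change over the root of F. In simulated data of 18265 genes the share of altered genes that this test called was 14% at 1.5-fold, 46% at 2-fold and 94% at 4-fold (TGF-β + TFA against TGF-β, 50 genes each). The altered genes were drawn from those with a mean CPM of at least 2, and no length trend was simulated. These shares therefore do not cover tested members of lower count, such as TFF2, MUC1 and CEACAM6. Alternatives were DESeq2 1.42.0, limma 3.58.1 on log2(FPKM + 0.5), other pseudocounts (0.1 and 1), filters and scalings, libraries left out and the replicate number as a block. Per-library values are given for the 12 members of highest mean FPKM, and members and lists were chosen with earlier results of these data known. In lists, the genes named were the 2 of highest mean FPKM and those with an unadjusted p under 0.05, and others were chosen after their values were seen. Some genes that this rule names are not reported here. Exon overlaps come from GENCODE 29. TGF-β + TFA 1 and 2 differed by 3.45 times sampling noise (chi-square per degree of freedom, counts divided by 4). TGF-β + TFA 3 differed from them by 67.4 and 65.5 times, and pairs of the TGF-β group by 11.3 to 25 times.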

Additional observations from a re-analysis of the deposited data

How the results depend on the processing

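Under all 17 alternatives 0 members were called. The median log2 fold change of the tested members, -0.13, stayed between -0.20 and -0.10 outside the fits that left out 1 library, where it ran from -0.26 (without TGF-β 2) to -0.08 (without TGF-β + TFA 3). Over the whole table, the 2 called genes became 16 with DESeq2, 1 with limma on unfiltered FPKM, and 1 to 3 without 1 library. With the replicate number as a block there was 1, and no member. Same-numbered libraries did not deviate together (correlations 0.04, -0.12 and -0.13). These deviations were taken from means of 3 libraries and also hold the length trend, so whether the numbers pair the libraries stays unknown.

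Of 320 member values under the alternatives, 25 had the other sign, in 6 members. On FPKM, limma gave AGR2 -0.01 with each pseudocount and filter, and MUC13 -0.02 (-0.01 with a pseudocount of 1). HNF4G was 0.06 with the block. Without TGF-β 1 and TGF-β + TFA 3 together, HNF4G was 0.85, KLF5 0.03 and AGR2 -0.26. Leaving out 1 library gave AGR2 -0.26 to 0.19, KLF5 -0.25 to 0.03, MUC13 -0.12 to 0.14, HNF4G -0.61 to 0.65, CEACAM1 -0.28 to 0.40 and REG4 -0.88 to 0.08. The cause was not tested.

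With a minimum of 0.5 or 5 FPKM in place of 1, 11 or 6 members counted as expressed, and with values rescaled to TPM 13. The 12 tested members under 1 FPKM had standard errors of 0.23 to 1.48, against 0.11 to 0.34 for the 9 above it.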
